A study of Homo sapiens with 36 samples.

Results

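The answer of IRG1 knockout (KO) macrophages to lipopolysaccharide (LPS) given together with interferon-gamma (IFN-γ) for 24 h was measured in 6 of the 36 RNA-seq libraries of a larger series, chosen by their labels alone. The 3 stimulated KO libraries received LPS and IFN-γ at 200 ng/mL each, and the 3 vehicle KO libraries received vehicle for the same 24 h. The cells are THP-1, a human monocytic leukaemia line, and all of them, vehicle cells included, had first been turned into macrophage-like cells with 100 nM phorbol ester (PMA) for 72 h. IRG1 is now called ACOD1 and encodes the mitochondrial enzyme that makes itaconate from cis-aconitate, and the series concerns what this metabolite does to cytokine output and to ubiquitin in human macrophages. Beside the 6 libraries stand 3 stimulated and 3 vehicle libraries of wild-type (WT) THP-1 cells at 24 h, and 3 stimulated and 3 vehicle KO libraries at 6 h, with the same PMA, LPS and IFN-γ. The labels do not say how the gene was disrupted, whether the KO line is 1 clone or whether the 3 libraries of a group came from separate cultures. The p-values therefore measure only the spread between these samples, and the disrupted gene and other differences between the KO and WT lines cannot be told apart.

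LPS is sensed by TLR4, whose adaptors MYD88 and TICAM1 lead to NF-kB, AP-1 and type I interferon, while IFN-γ acts through JAK kinases and STAT factors on IRF1, CIITA and the guanylate-binding proteins. Given together they produce the classical inflammatory state of macrophages, known for chemokines that attract T cells, antigen presentation, antimicrobial proteins and a retuned metabolism. Itaconate is made late in this response, inhibits succinate dehydrogenase and modifies cysteines of proteins such as KEAP1.

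Values are the log2 expression values that the authors deposited, so a difference of 1 is a 2-fold difference. Errors after ± are SEs for log2 changes and SDs for levels, and where 3 values stand together they are those of replicates 1, 2 and 3. A gene was called when its adjusted p from limma, over all genes tested, was below 0.05. Values near 0 lie at the bottom of the table, whose lowest value was -0.34, and a change from that floor is no measure of a fold, so a linear fold stands only beside genes with both group means at or above 3.32, the log2 of 10. Read counts were not part of the table, so the sequencing depth is unknown. Among the 3 stimulated KO libraries Pearson's r across genes was 0.9349 to 0.9595, and among the 3 vehicle KO libraries 0.9503 to 0.9714. Libraries that stand apart in the series are WT stimulated 24 h replicate 3 (r of 0.8561 and 0.8846 with its group) and KO stimulated 6 h replicate 2 (0.8266 and 0.8514), which touch the comparisons with WT and with 6 h. In bulk RNA, fewer cells of a kind and less RNA per cell cannot be told apart. Of 20 macrophage and monocyte markers, 7 were called higher, 5 lower and 8 neither, and CD68, a lysosomal protein of macrophages, read 11.82, 11.69 and 12.01 in stimulated KO cells and 10.88, 11.61 and 11.65 in vehicle KO cells. The T cell genes CD3D and CD2 averaged 0.01 ± 0.00 and 0.01 ± 0.00 in stimulated KO cells and 0.44 ± 0.34 and 0.58 ± 1.01 in vehicle KO cells (SD, n = 3 each). The 9 T, B and NK cell markers tested had higher median levels, 2.78 to 3.45 in stimulated and 2.8 to 3.23 in vehicle KO libraries.

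Promoter letters of 6 genes from 3 arms of the response follow, since each arm has a known DNA element. The genes were picked among called list members that hold the element in these bases, 2 per arm with the largest changes. That all 6 hold it was therefore fixed by the choice, and they do not stand for the other genes of their arm. The letters are the 250 bases before the start of the transcript, 5′ to 3′ on the gene's strand, from RefSeq on GRCh38.p14. Capitals mark the element searched on both strands. CXCL9, chr4:76007510-76007759 (minus strand), and CXCL10, chr4:76023498-76023747 (minus strand), hold the core of the interferon-stimulated response element (GAAA, any 2 bases and GAAA), 171 and 221 bases before the start. CHAC1, chr15:40953221-40953470 (plus strand), and ASNS, chr7:97872409-97872658 (minus strand), hold TGATGNAA, the core that ATF4 with C/EBP proteins recognises, 209 and 68 bases before the start and in CHAC1 on the other strand. E2F1, chr20:33686386-33686635 (minus strand), and UNG, chr12:109097922-109098171 (plus strand), hold TTTCGCG, the core of the E2F site, 37 and 58 bases before the start and in UNG on the other strand.
CXCL9: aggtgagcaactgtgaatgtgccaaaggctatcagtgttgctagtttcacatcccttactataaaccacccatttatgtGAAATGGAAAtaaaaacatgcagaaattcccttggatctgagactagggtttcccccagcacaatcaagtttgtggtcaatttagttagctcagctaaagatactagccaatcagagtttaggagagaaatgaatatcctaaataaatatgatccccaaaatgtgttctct
CXCL10: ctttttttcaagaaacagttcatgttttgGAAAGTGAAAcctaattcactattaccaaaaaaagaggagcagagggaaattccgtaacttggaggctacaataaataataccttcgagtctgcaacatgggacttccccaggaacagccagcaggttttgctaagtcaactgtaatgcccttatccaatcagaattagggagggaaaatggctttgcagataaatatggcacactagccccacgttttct
CHAC1: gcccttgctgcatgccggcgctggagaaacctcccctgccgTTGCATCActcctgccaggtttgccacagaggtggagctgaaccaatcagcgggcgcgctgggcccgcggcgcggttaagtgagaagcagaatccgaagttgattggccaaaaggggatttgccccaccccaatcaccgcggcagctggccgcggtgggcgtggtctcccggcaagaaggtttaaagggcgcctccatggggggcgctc
ASNS: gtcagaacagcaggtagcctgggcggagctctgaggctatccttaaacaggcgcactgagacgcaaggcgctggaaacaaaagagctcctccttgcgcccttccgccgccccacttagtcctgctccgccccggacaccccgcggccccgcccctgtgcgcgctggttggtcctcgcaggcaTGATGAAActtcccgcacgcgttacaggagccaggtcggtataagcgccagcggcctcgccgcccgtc
E2F1: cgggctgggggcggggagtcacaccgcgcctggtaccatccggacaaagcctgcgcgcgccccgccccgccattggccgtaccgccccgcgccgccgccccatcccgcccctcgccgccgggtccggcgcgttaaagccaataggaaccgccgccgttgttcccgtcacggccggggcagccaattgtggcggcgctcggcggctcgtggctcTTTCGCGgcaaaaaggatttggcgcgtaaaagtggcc
UNG: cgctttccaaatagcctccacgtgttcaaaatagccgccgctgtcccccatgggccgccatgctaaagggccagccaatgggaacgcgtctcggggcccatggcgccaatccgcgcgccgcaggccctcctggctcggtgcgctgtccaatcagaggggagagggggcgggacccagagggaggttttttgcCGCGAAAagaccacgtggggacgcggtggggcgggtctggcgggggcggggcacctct

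In windows from 250 bases before to 50 after the start, the interferon-stimulated response element core was found in 215 of 3722 windows of genes called higher in stimulated KO cells, which is 5.78%. The share was 2.11% among genes called lower, 2.65% among genes not called and 3.57% over all 35116 windows, and 64.4% (29 of 45) among 42 antiviral interferon-stimulated genes. TGATGNAA was found in 2.66% of windows of genes called higher, 2.15% of genes called lower, 2.15% of genes not called and 3.62% of all windows, and in 15.9% (7 of 44) for an integrated stress response list. TTTCGCG was found in 1.13% of windows of genes called higher, 2.29% of genes called lower, 2.09% of genes not called and 1.32% of all windows, and in 20.6% (7 of 34) for a DNA replication list. The 35116 windows include those of genes that were not tested here, so the shares over all windows are no background for the called genes. A gene can have several windows, and a match is a run of letters, not a site of binding.

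The targeted gene was read first. ACOD1 read 8.30, 9.78 and 8.60 in stimulated KO cells and 0.03, 0.32 and 0.03 in vehicle KO cells. Its transcript was thus high in all 3 stimulated KO libraries and at the floor in all 3 vehicle libraries, a rise of 8.76 ± 0.47 (adjusted p = 9.55e-15). The WT cells had 10.95, 10.96 and 9.20 when stimulated and 0.59, 0.86 and 0.32 with vehicle, and the difference of the KO and WT responses was -1.01 ± 0.67 and was not called (adjusted p = 0.591). A transcript can be present without a working enzyme, and protein and itaconate were not measured in these files.

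Stimulation for 24 h moved a large share of the transcriptome of KO macrophages, with chemokine, interferon and antigen presentation genes up and cell cycle and uptake genes down. Of 21232 genes tested, 3682 were called higher (17.3%) and 4587 lower (21.6%), 38.9% in all, and the median change over all genes was -0.08. The rises were the larger changes: 877 called genes rose and 488 fell by a log2 change of 3 or more, and 231 rose and 35 fell by 5 or more. At 8 or more there were 34 rises and 0 falls. The values of the groups did not overlap in 25.5% of genes on the higher side and 30.2% on the lower side.

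CXCL9, a chemokine that draws activated T cells through CXCR3, had the largest rise, with 16.05, 14.67 and 15.76 in stimulated KO cells and -0.17, -0.02 and 0.09 in vehicle KO cells (15.53 ± 0.40, adjusted p = 2.89e-22). The groups lay at opposite ends of the scale, with no overlap. CXCL10, a second CXCR3 ligand, read 15.41, 15.29 and 15.65 in stimulated KO cells and -0.09, 2.38 and 0.06 in vehicle KO cells (14.67 ± 0.73, adjusted p = 1.56e-15). Vehicle replicate 2 was the highest of the vehicle libraries there and still far under all stimulated ones. CCR7, the receptor that guides mature dendritic cells to lymph nodes, read 12.43, 12.84 and 11.82 in stimulated KO cells and 0.06, 0.80 and 0.06 in vehicle KO cells (12.06 ± 0.50, adjusted p = 5.07e-17). The other rises among the 12 largest were in the chemokines CXCL11 (13.14), CCL8 (11.79) and CXCL13 (11.40), the adhesion molecule VCAM1 (11.45), the hyaluronan-binding TNFAIP6 (11.44), the tryptophan-degrading IDO1 (10.41), the costimulator CD80 (10.39), the activin subunit INHBA (10.11) and the lysosomal protein LAMP3 (10.11). Each of these 12 genes had non-overlapping groups, which the naming rule required.

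**Figure D1:**
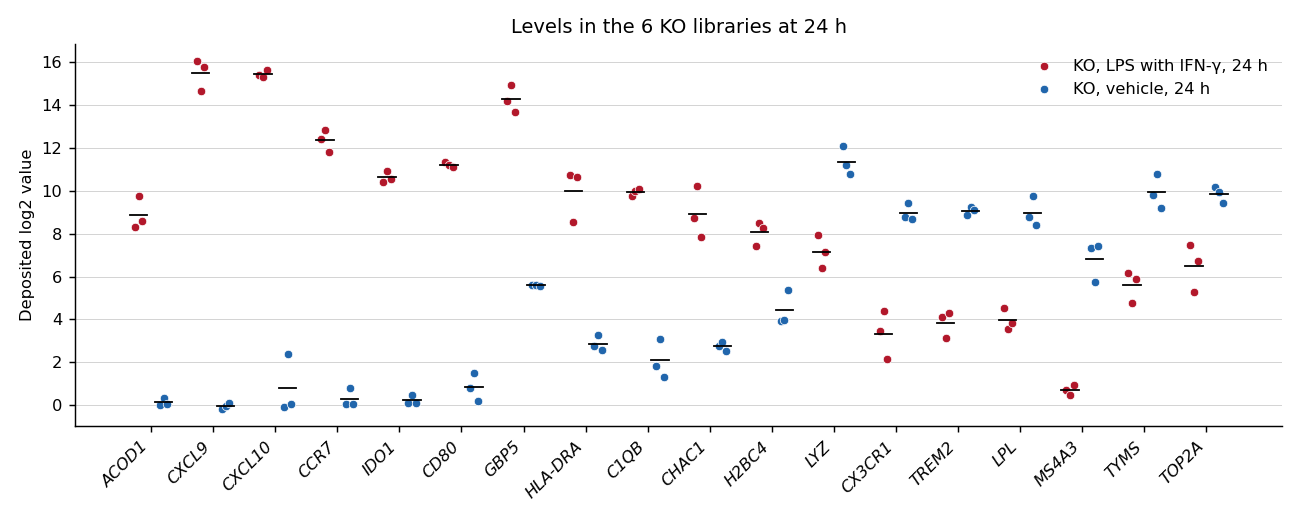
Deposited log2 values (y axis) of 18 genes in the 3 KO libraries with LPS and IFN-γ and the 3 KO libraries with vehicle at 24 h. Points are libraries and bars are group means. The 11 genes from ACOD1 to H2BC4 lie higher and the 7 from LYZ to TOP2A lie lower in stimulated KO cells, with no overlap in any of the 18.

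The largest fall was in DLX3, a homeobox factor best known from skin and placenta, with 0.93, 0.48 and 0.98 in stimulated KO cells and 9.00, 6.55 and 9.07 in vehicle KO cells (-7.41 ± 0.84, adjusted p = 4.29e-08). Vehicle replicate 2 was the lowest of its group. RGS4, which shortens signals of G protein-coupled receptors, read 0.97, 1.14 and 0.78 in stimulated KO cells and 8.58, 7.90 and 7.64 in vehicle KO cells (-7.08 ± 0.45, adjusted p = 4.43e-13). MS4A3, a membrane protein of granulocyte-monocyte precursors, read 0.72, 0.50 and 0.94 in stimulated KO cells and 7.34, 5.76 and 7.41 in vehicle KO cells (-6.11 ± 0.84, adjusted p = 1.18e-06). The stimulated values of RGS4 and MS4A3 were near the floor in all 3 libraries. The 12 largest falls also held NRGN (-6.48), PCARE (-6.37), TMEM37 (-6.25), HSPB3 (-6.10), PLPPR3 (-6.02), the carbonic anhydrase CA2 (-5.85), PHACTR3 (-5.77), the clotting transglutaminase F13A1 (-5.67) and the orphan receptor GPR82 (-5.65). Several of them were genes that vehicle KO cells carried at a higher level than vehicle WT cells: DLX3 averaged 8.21 in vehicle KO and 3.99 in vehicle WT cells at 24 h, RGS4 8.04 and 2.43, PCARE 7.51 and 2.59, and HSPB3 8.15 and 2.05. Others had closer means, such as TMEM37 with 8.37 in vehicle KO and 8.21 in vehicle WT cells and F13A1 with 6.06 and 6.21. The falls were ranked on these same vehicle KO values, which favours genes that are high there. In the vehicle libraries at 6 and 12 h, RGS4 alone of the 12 had every KO value at least 2 log2 units above every WT value.

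Of 25 receptors and adaptors for LPS and IFN-γ, 11 were called higher and 2 lower, with a median change of 1.09. The kinase IRAK2, which carries TLR signals behind MYD88, read 8.01, 9.44 and 7.96 in stimulated KO cells and 3.29, 3.15 and 2.98 in vehicle KO cells (5.33 ± 0.53, adjusted p = 3.94e-09). The RNA sensor TLR8 read 8.29, 7.22 and 7.12 in stimulated KO cells and 3.38, 3.66 and 2.84 in vehicle KO cells (4.25 ± 0.88, adjusted p = 0.00033), so neither gene's groups overlapped. JAK2, the kinase of the IFN-γ receptor, rose by 3.60 and the receptor chain IFNGR2 by 1.97, while the ligand-binding chain IFNGR1 fell (-1.11). The adaptors MYD88 (1.83), TICAM1 (2.07) and TICAM2 (1.90) rose. The flagellin receptor TLR5 fell (-2.43). TLR4 itself changed by -1.01 ± 0.69 and was not called (adjusted p = 0.258).

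All 18 genes of NF-kB subunits and their inhibitors were called higher, with a median change of 3.38, and 16 of the 18 were called in each of the 6 fits that left out 1 KO library. RELB, the subunit of the alternative NF-kB pathway, read 9.63, 9.61 and 9.59 in stimulated KO cells and 3.75, 4.39 and 3.48 in vehicle KO cells (5.74 ± 0.27, adjusted p = 6.21e-16), which is 53.3-fold. Its partner NFKB2 rose by 5.19 ± 0.25, and the classical subunits NFKB1, REL and RELA rose by 3.48, 3.44 and 2.12. The brakes rose as well. The inhibitor NFKBIA read 12.48, 12.62 and 12.77 in stimulated KO cells and 7.72, 7.44 and 8.27 in vehicle KO cells (4.81 ± 0.30), the ubiquitin-editing TNFAIP3 (A20) rose by 5.74, the nuclear BCL3 by 5.22 and the deubiquitinase CYLD by 3.33.

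Among 23 STAT, IRF and SOCS genes 18 were called higher and 0 lower, with a median change of 2.93. The feedback inhibitors SOCS1 (6.19 ± 0.55) and SOCS3 (5.72 ± 0.53) rose most, followed by STAT4 (5.35) and the AP-1 relative BATF2 (5.03). IRF1 (5.00), IRF7 (5.01), STAT2 (3.49) and IRF9 (2.93), the partners of type I and II interferon signalling, rose too. IRF8, which shapes the monocyte lineage, changed by -0.18 ± 0.36 and was not called. Of 22 AP-1, EGR and NR4A factors 16 were called higher and 1 lower. ATF3, a stress-induced repressor of cytokine genes, read 9.85, 9.21 and 9.77 in stimulated KO cells and 2.89, 3.39 and 2.80 in vehicle KO cells (6.59 ± 0.32), and NR4A3 (6.21), MAFF (5.76) and IER3 (5.18) followed. FOS alone was called lower (-1.85). Of 10 DUSP phosphatases, which switch off MAP kinases, 6 were called higher, led by DUSP5 (7.24 ± 0.40), DUSP8 (4.52) and DUSP1 (4.06), and DUSP7 fell (-2.20), with 2 called lower without stimulated replicate 2.

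Proinflammatory cytokines were called higher in 16 of 25 and lower in 1, with a median change of 3.83. IL6, which drives the acute phase response, read 6.91, 9.15 and 7.26 in stimulated KO cells and -0.04, -0.07 and -0.07 in vehicle KO cells (7.83 ± 0.63, adjusted p = 6.41e-11). IL1B read 9.62, 13.92 and 9.76 in stimulated KO cells and 4.72, 6.35 and 5.79 in vehicle KO cells (5.48 ± 1.24, 44.5-fold). TNF read 4.50, 4.81 and 4.81 in stimulated KO cells and 0.63, 0.93 and 0.43 in vehicle KO cells (4.04 ± 0.44). The groups overlapped in none of these 3 genes, and stimulated replicate 2 was far the highest of its group for IL1B. EBI3, a subunit shared by IL-27 and IL-35, read 12.61, 12.72 and 12.49 in stimulated KO cells and 2.90, 3.44 and 2.12 in vehicle KO cells (9.79 ± 0.62). Its IL-27 partner IL27 rose by 4.37, IL15 by 4.24, IL32 by 8.47, the death ligand TNFSF10 (TRAIL) by 6.38, the B cell survival factor TNFSF13B (BAFF) by 6.09 and CSF1 by 5.10. IL12B rose by 2.96 ± 1.15, and this call was lost without stimulated replicate 2 (1.56), vehicle replicate 1 (2.88), vehicle replicate 2 (3.12) or vehicle replicate 3 (2.88). Without vehicle replicate 3 the list had 2 members called lower. IL18 was the 1 member called lower with all libraries in, at 5.18, 5.66 and 5.32 in stimulated KO cells and 6.98, 7.88 and 7.19 in vehicle KO cells. Among 14 anti-inflammatory mediators 10 were called higher and 0 lower, among them the decoys IL1RN (3.91) and IL18BP (2.90) and the receptor IL10RA (3.34), while IL10 changed by 0.27 ± 0.69 and was not called. Of 7 interferons and receptors TYK2 (1.44) and IFNAR1 (1.18) were called higher and 0 lower.

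Chemokines formed the list with the highest median change, 5.64, with 25 of 28 called higher and 1 lower. Beside the CXCR3 ligands stood the chemokines CCL3 (8.07), CCL4 (9.27) and CCL5, which read 12.84, 13.72 and 12.54 in stimulated KO cells and 5.47, 6.48 and 5.12 in vehicle KO cells, 162-fold. The neutrophil attractants CXCL8 (8.89), CXCL1 (7.34), CXCL3 (7.09) and CXCL2 (5.90) rose, and so did the monocyte attractant CCL2 (6.53) and the CCR7 ligand CCL19 (10.08). CCL24, an eosinophil attractant of alternatively activated macrophages, fell to 0.35, -0.02 and 0.00 in stimulated KO cells, against 4.30, 2.97 and 4.21 in vehicle KO cells. Receptors moved both ways. Of 18 chemokine and attractant receptors 5 were called higher and 3 lower, and the higher count was 3 without vehicle replicate 1. The median change of the receptors was 0.8, and over all genes 17.3% were called higher and 21.6% lower. CCR7, given above, had the largest change of the receptors. The fractalkine receptor CX3CR1 read 3.47, 4.38 and 2.17 in stimulated KO cells and 8.79, 9.45 and 8.68 in vehicle KO cells (-5.63 ± 0.60, adjusted p = 1.61e-08), and the CCL2 receptor CCR2 changed by -5.00 ± 0.86. CXCR2, which binds CXCL8, fell too (-3.92), while the complement receptor C5AR1 (2.85) and the atypical receptor CCRL2 (4.45) rose.

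All 42 antiviral interferon-stimulated genes were called higher, in every fit that left out 1 KO library, with a median change of 4.70. IFI44L (8.17 ± 1.06), RSAD2 (7.43 ± 0.71), the exonuclease ISG20 (7.42) and IFI27 (7.34) led. ISG15, the ubiquitin-like modifier, read 14.51, 14.82 and 14.70 in stimulated KO cells and 7.75, 9.95 and 8.89 in vehicle KO cells, 56.4-fold. The smallest rise was 1.44 ± 0.43 in IFITM2. Of 21 genes of cell-autonomous defence 16 were called higher and 0 lower, with a median of 3.80. The guanylate-binding proteins attack vacuoles and bacteria in the cytosol, and GBP5 read 14.18, 14.96 and 13.66 in stimulated KO cells and 5.62, 5.61 and 5.54 in vehicle KO cells, 410-fold, with GBP1 (8.23), GBP4 (6.90) and GBP2 (6.73) close behind. APOL4 (7.70) and APOL3 (6.35) of the apolipoprotein L family rose, whereas NOS2, the inducible nitric oxide synthase of mouse macrophages, stayed near the floor with 0.99, 0.30 and 0.68 in stimulated KO cells and 0.88, 1.24 and 0.66 in vehicle KO cells.

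Cytosolic sensors of nucleic acid were called higher in 11 of 14, among them the DNA sensors AIM2 (6.87 ± 0.60), IFI16 (3.39) and CGAS (2.55), while the adaptor STING1 read 7.54, 7.52 and 7.18 in stimulated KO cells and 9.06, 9.06 and 9.16 in vehicle KO cells (-1.68 ± 0.29). Of 7 APOBEC3 cytidine deaminases, which mutate viral DNA, 4 were called higher, led by APOBEC3A (4.19), and APOBEC3B was called lower (-1.66), a call lost without stimulated replicate 2 (-1.19). Inflammasome and cell death genes were called higher in 16 of 23 and lower in 2, or 1 without stimulated or vehicle replicate 3. The death receptor FAS (5.46), CASP5 (5.17), NOD2 (4.36) and the membrane-rupture protein NINJ1 (3.23) rose, and CASP1 (1.97), CASP4 (1.67) and the pore-former GSDMD (1.56) rose less. The adaptor PYCARD (ASC) fell (-1.48 ± 0.34), and so did NLRP1 (-1.66), a call lost without stimulated replicate 3 (-1.32) or vehicle replicate 3 (-1.47). In the BCL2 family 9 of 16 were called higher, led by BCL2L14 (6.43) and the survival protein BCL2A1 (4.80), and BIK fell (-2.66).

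Genes of MHC class I presentation were called higher in 14 of 16, with a median of 2.00, and 5 of 5 immunoproteasome genes were called higher. The peptide transporter TAP1 read 9.38, 9.12 and 9.30 in stimulated KO cells and 3.99, 4.43 and 4.03 in vehicle KO cells (5.12 ± 0.24, 34.8-fold), and the immunoproteasome subunit PSMB9 rose by 2.78. Of 31 genes of the constitutive proteasome 7 were called higher and 0 lower, 4 without stimulated replicate 3. Among all genes 17.3% were called higher and 21.6% lower. The catalytic subunits PSMB5, PSMB6 and PSMB7, which the immunoproteasome subunits replace, changed by -0.19, -0.08 and -0.21 and were not called. Class II genes were called higher in 14 of 17 in each fit that left out 1 KO library, with a median of 3.66. HLA-DRA read 10.76, 8.53 and 10.66 in stimulated KO cells and 2.75, 3.27 and 2.57 in vehicle KO cells (7.12 ± 0.60, adjusted p = 1.82e-10). The class II transactivator CIITA read 6.94, 5.02 and 6.46 in stimulated KO cells and 1.65, 1.82 and 0.31 in vehicle KO cells (4.88 ± 0.53), and CD74, the invariant chain, rose by 4.50. Stimulated replicate 2 was the lowest of the 3 for HLA-DRA and still above every vehicle value. HLA-DQA1 (8.00), HLA-DPB1 (6.40) and HLA-DPA1 (5.83) rose, and values of HLA-DRB1 (3.47) and HLA-DRB5 (4.58) are uncertain because these near-identical genes share reads.

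Costimulatory and checkpoint molecules were called higher in 13 of 20 and lower in 1. CD80 read 11.37, 11.19 and 11.09 in stimulated KO cells and 0.79, 1.50 and 0.18 in vehicle KO cells, CD40 rose by 5.41 ± 0.29, CD86 by 2.75 ± 0.59 and ICOSLG by 2.31. The inhibitory ligand CD274 (PD-L1) read 9.13, 9.23 and 8.74 in stimulated KO cells and 1.27, 0.84 and 0.26 in vehicle KO cells (8.24 ± 0.43), and its relative PDCD1LG2 rose by 4.16. The groups of CD80 and CD274 lay far apart. The checkpoint VSIR fell (-1.82 ± 0.41). Tryptophan breakdown, which starves neighbouring T cells and yields kynurenine, was called higher in 6 of 9 genes: IDO1 read 10.40, 10.95 and 10.54 in stimulated KO cells and 0.09, 0.47 and 0.11 in vehicle KO cells, and IDO2 (6.38), TDO2 (3.58), KYNU (3.60) and the tryptophanyl-tRNA synthetase WARS1 (5.74) rose. QPRT, which carries the pathway on to NAD, read 5.79, 5.00 and 6.09 in stimulated KO cells and 9.44, 9.44 and 9.67 in vehicle KO cells (-3.89 ± 0.48).

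**Figure D2:**
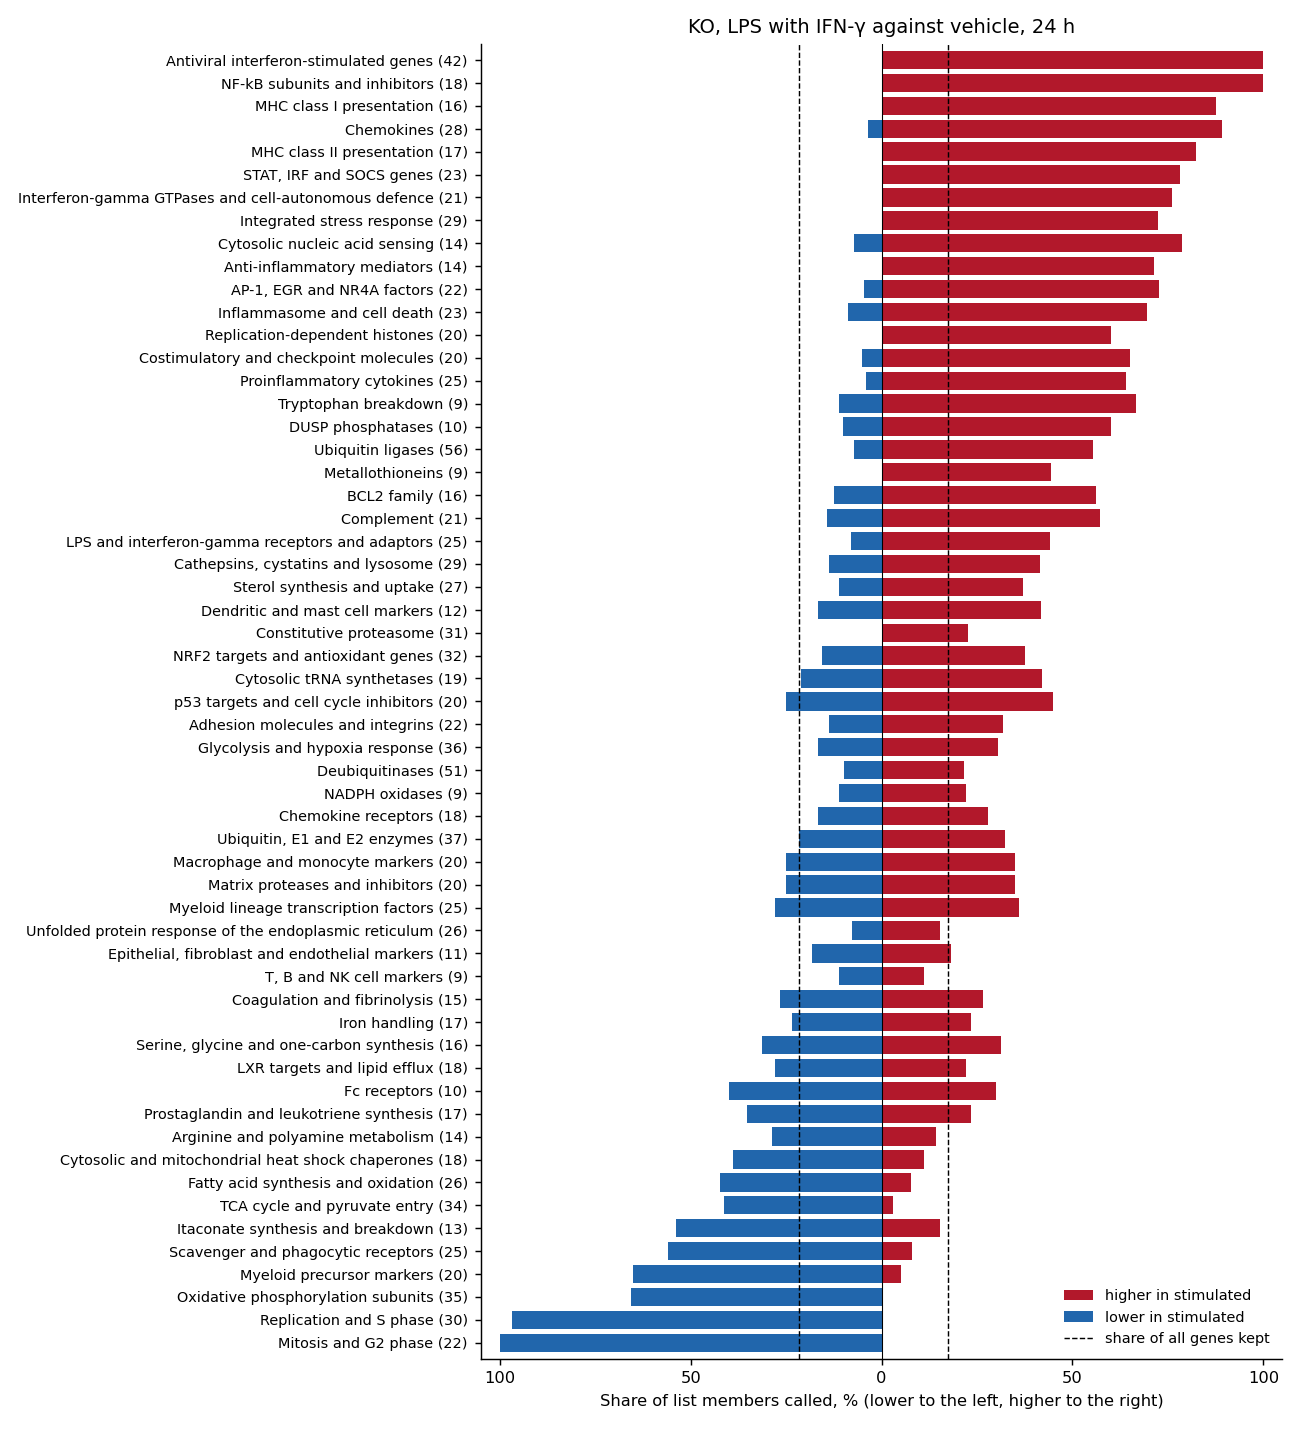
Share of members of the 57 gene lists with at least 9 members (number of members in brackets) called higher (right) or lower (left) in stimulated against vehicle KO cells at 24 h, in %; dashed lines mark 17.3% and 21.6%, the shares over all genes tested. Antiviral and NF-kB lists lie wholly on the higher side and the mitosis list wholly on the lower side.

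Around the targeted enzyme, the genes of itaconate synthesis and breakdown were called higher in 2 of 13, ACOD1 and the cobalamin chaperone MMAA (2.24 ± 0.24), and lower in 7. Those lower held CLYBL (-1.82), which cleaves citramalyl-CoA in the last step of itaconate breakdown, the cytosolic aconitase ACO1 (-2.08), which makes cis-aconitate, and the dicarboxylate carrier SLC25A10. SLC25A10 read 3.73, 1.72 and 2.86 in stimulated KO cells and 5.81, 6.30 and 5.83 in vehicle KO cells (-3.21 ± 0.41, adjusted p = 3.57e-07). TCA cycle and pyruvate entry genes were called lower in 14 of 34 and higher in 1, with a median of -0.40. Succinate dehydrogenase, the enzyme itaconate inhibits, had SDHA (-0.82 ± 0.16) lower, while SDHB changed by -0.03 and was not called. Malate dehydrogenase MDH1 (-1.73), fumarase FH (-1.26) and IDH2 (-1.26) fell. The pyruvate dehydrogenase kinase PDK4 read 1.90, 0.26 and 1.63 in stimulated KO cells and 7.57, 3.48 and 7.46 in vehicle KO cells (-4.91 ± 1.00, adjusted p = 0.000262), with vehicle replicate 2 the lowest of its group. The 1 member called higher was mitochondrial PCK2 (2.14), which is also a target of ATF4.

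Subunits of oxidative phosphorylation were called lower in 23 of 35 and higher in 0, with a median of -0.81 against -0.08 over all genes. 17 of the 23 were called in every fit that left out 1 KO library. The changes were small and the spread narrow: UQCRQ of complex III read 8.35, 8.01 and 8.86 in stimulated KO cells and 9.85, 10.20 and 10.24 in vehicle KO cells (-1.69 ± 0.27), and NDUFB10 of complex I (-1.51), COX5A of complex IV (-1.12) and ATP5PO of the ATP synthase (-1.26) fell. Of 36 genes of glycolysis and the hypoxia response 11 were called higher and 6 lower. The glucose transporter SLC2A6 (3.89), adrenomedullin ADM (2.21), VEGFA (2.03) and the lactate exporter SLC16A3 (1.04) rose, HK3 (-3.02) and SLC16A1 (-2.21) fell, and LDHA changed by -0.37 ± 0.30 and was not called. Of 14 arginine and polyamine genes, spermidine acetyltransferase SAT1 read 10.17, 11.74 and 10.75 in stimulated KO cells and 6.31, 6.23 and 7.09 in vehicle KO cells (20.3-fold), while ornithine decarboxylase ODC1 (-1.31) and spermidine synthase SRM (-1.63) fell.

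The integrated stress response, in which ATF4 turns on amino acid synthesis and import, was called higher in 21 of 29 genes and lower in 0, with a median of 1.67. Stimulated replicate 2 decided many of these calls, and without it 12 were called higher. CHAC1, which degrades glutathione and whose promoter is printed above, read 8.72, 10.22 and 7.83 in stimulated KO cells and 2.78, 2.96 and 2.54 in vehicle KO cells (6.16 ± 0.85, adjusted p = 1.19e-06). Asparagine synthetase ASNS read 8.03, 9.57 and 7.28 in stimulated KO cells and 4.52, 4.70 and 4.85 in vehicle KO cells (3.61 ± 0.50, 12.2-fold). The groups of both genes did not overlap. STC2 (5.58), ATF5 (4.54), SESN2 (3.91), DDIT3 (CHOP, 3.38), PPP1R15A (3.38) and ATF4 itself (1.98) rose, as did the amino acid carriers SLC6A9 (4.62) and SLC3A2 (1.70). Serine synthesis and mitochondrial one-carbon enzymes rose in PSAT1 (3.55), PHGDH (2.58), MTHFD2 (3.37) and ALDH1L2 (3.08). Cytosolic SHMT1 (-3.36) and thymidylate synthase TYMS (-4.34), which serve DNA synthesis, fell in the same list, in which 5 of 16 were called higher and 5 lower, with 3 lower without stimulated replicate 2. Of 19 cytosolic tRNA synthetases 8 were called higher and 4 lower, and the lower count was 1 without stimulated replicate 2 and 2 without vehicle replicate 2. With all libraries in, the lower count was near the share over all genes, of which 17.3% were called higher and 21.6% lower. CARS1 (2.50), GARS1 (1.79) and AARS1 (1.63) rose and QARS1 fell (-1.17).

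Of 26 genes of the unfolded protein response of the endoplasmic reticulum 4 were called higher and 2 lower, with a median of -0.12. The higher count was near the share over all genes, of which 17.3% were called higher and 21.6% lower. HSPA5 (BiP), the central chaperone, read 13.13, 12.17 and 13.62 in stimulated KO cells and 13.15, 12.63 and 12.80 in vehicle KO cells (0.12 ± 0.36, adjusted p = 0.831), so its groups overlapped. EDEM1 (2.26) and HERPUD1 (1.22), which serve degradation of misfolded proteins, rose. Leaving out 1 library moved these small counts, to 2 higher without vehicle replicate 3 and to 7 lower without stimulated replicate 3 or 0 without stimulated replicate 2. Cytosolic and mitochondrial chaperones were called lower in 7 of 18 and higher in 2. The higher count was 1 without stimulated replicate 1 or vehicle replicate 1 or 2, and the lower count was 3 without stimulated replicate 2 and 4 without vehicle replicate 2. DNAJB1 (-1.28) and HSPD1 (-1.27) fell and DNAJA1 rose (1.15).

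**Figure D3:**
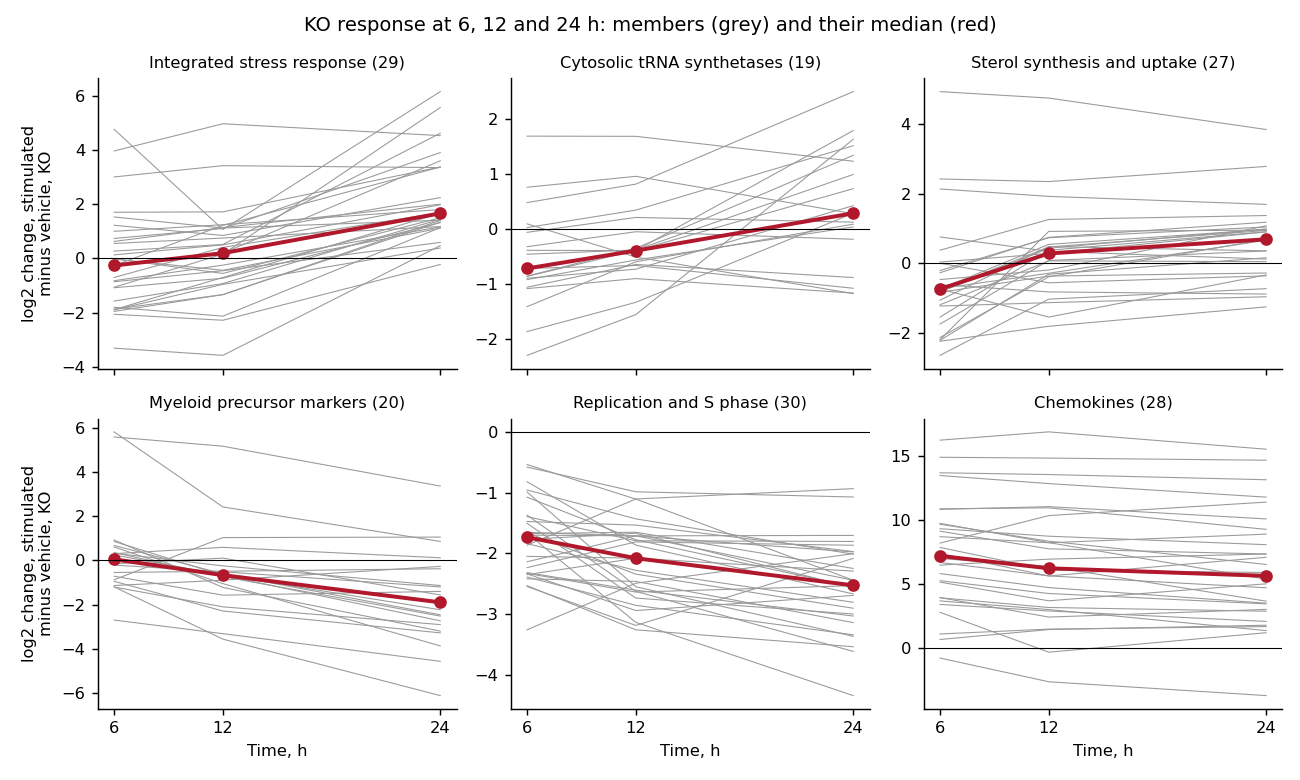
Log2 change of stimulated against vehicle KO cells (y axis) at 6, 12 and 24 h (x axis) for the members of 6 gene lists (grey lines, number in brackets), with the list median in red. The medians of the integrated stress response, tRNA synthetase and sterol lists lie higher at 24 h than at 6 h, and those of the myeloid precursor, replication and chemokine lists lower.

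Sterol synthesis and uptake genes, driven by SREBF2, were called higher in 10 of 27 and lower in 3, with a median of 0.69. STARD4, a cholesterol carrier, read 8.06, 7.93 and 7.96 in stimulated KO cells and 3.99, 4.93 and 3.46 in vehicle KO cells (3.85 ± 0.45, 14.5-fold), and lanosterol synthase LSS (2.79), INSIG1 (1.70) and MVD (1.18) rose. Most other rises in the list were near 1 and less steady, and 6, 6 or 5 genes were called higher without stimulated replicate 1, vehicle replicate 1 or vehicle replicate 3. Genes of lipid use and storage fell more often than they rose. Of 26 genes of fatty acid synthesis and oxidation 11 were called lower and 2 higher. Lipoprotein lipase LPL read 4.54, 3.57 and 3.82 in stimulated KO cells and 8.79, 9.75 and 8.41 in vehicle KO cells (-5.01 ± 0.75, adjusted p = 4.54e-06), and PPARG (-3.59), which turns such genes on, PLIN2 (-2.39), CPT1A (-2.06) and ACADM (-1.81) fell, while the acyl-CoA synthetase ACSL1 rose (2.58). Among 18 targets of the oxysterol receptor LXR and genes of lipid efflux, the receptor gene NR1H3 rose (3.37), and TREM2, a lipid receptor of resident macrophages, read 4.12, 3.16 and 4.30 in stimulated KO cells and 8.88, 9.24 and 9.11 in vehicle KO cells (-5.22 ± 0.53). ABCA1 and ABCG1, which export cholesterol, changed by -0.49 and 0.57 and were not called. In the eicosanoid list the leukotriene enzymes LTC4S (-4.78), ALOX5 (-2.21), ALOX5AP (-2.14) and LTA4H (-2.01) fell, the prostaglandin synthase PTGES (3.08) and the receptor PTGER4 (2.72) rose, and PTGS2 changed by 2.13 ± 1.10 and was not called (adjusted p = 0.127).

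Antioxidant genes were called higher in 12 of 32 and lower in 5, the lower count being 2 without stimulated replicate 2 and 3 without vehicle replicate 1 or 3. Mitochondrial superoxide dismutase SOD2, an NF-kB target, read 12.69, 13.16 and 12.86 in stimulated KO cells and 6.09, 6.05 and 5.84 in vehicle KO cells (6.91 ± 0.29, 120-fold). NFE2L2 (NRF2), the factor freed when itaconate modifies KEAP1, rose by 2.52 ± 0.37, and of its targets GCLM (1.61) and TXN (1.93) rose. NQO1 changed by -0.86 ± 0.45 and was not called. Catalase CAT read 6.79, 6.67 and 6.91 in stimulated KO cells and 10.55, 10.55 and 10.58 in vehicle KO cells (-3.77 ± 0.34, adjusted p = 4.86e-10). Among iron genes the ferritin chain FTH1 (3.11) and the importers SLC11A2 (2.60) and SLC39A8 (2.42) rose, while the exporter SLC40A1 (ferroportin) read 1.57, 1.74 and 2.17 in stimulated KO cells and 5.17, 5.50 and 5.80 in vehicle KO cells (-3.66 ± 0.50) and STEAP3 fell (-3.91). In that list 4 of 17 were called higher and 4 lower, near the shares over all genes (17.3% and 21.6%), with a median change of 0.5. Metallothioneins and their factor MTF1 were called higher in 4 of 9, with MT2A (4.34) and MT1M (3.90) in front. Of 9 genes of NADPH oxidases, the cytosolic subunit NCF1 (5.11) rose, and CYBB, the catalytic subunit, changed by 0.58 ± 0.73 and was not called. NCF1 has near-identical pseudogenes, so its value is uncertain.

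Receptors for uptake were called lower in 14 of 25 and higher in 2, with a median of -1.56, and 9 were called lower without stimulated replicate 2. LRP1, which clears proteases and dying cells, read 5.01, 4.62 and 4.23 in stimulated KO cells and 7.90, 7.99 and 8.05 in vehicle KO cells (-3.36 ± 0.46, adjusted p = 1.14e-06). CD93 (-3.88), GPR34 (-3.40), COLEC12 (-2.86), MSR1 (-1.94) and MERTK (-1.56) fell, and AXL, a partner of MERTK in clearing dead cells, rose (2.13). The mannose receptor MRC1 read 0.44, 0.22 and 0.77 in stimulated KO cells and 2.90, 2.37 and 3.46 in vehicle KO cells (-2.44 ± 0.87), and the call was lost without stimulated replicate 1 (-2.42), stimulated replicate 2 (-2.31), vehicle replicate 1 (-2.44) or vehicle replicate 3 (-2.16). Among 10 Fc receptors, which bind antibodies, the activating FCGR1A rose (1.45 ± 0.41) and FCGR2A (-2.14) and the inhibitory FCGR2B (-2.50) fell, the last being uncertain because FCGR2B and FCGR2C share most of their sequence.

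Of 21 complement genes 12 were called higher and 3 lower, with a median of 3.53. C1QB of the first component read 9.75, 10.02 and 10.07 in stimulated KO cells and 1.83, 3.10 and 1.33 in vehicle KO cells (7.86 ± 0.56, adjusted p = 4.05e-12), the protease C1S rose by 6.72, the inhibitor SERPING1 by 6.73, and CFB of the alternative pathway by 6.07. C3, the central component, read 12.56, 12.19 and 11.99 in stimulated KO cells and 8.77, 9.20 and 8.17 in vehicle KO cells (3.53 ± 0.41, 11.6-fold). No values overlapped between groups for C1QB or C3. The receptor chain ITGAM (CD11b) read 7.25, 6.86 and 6.92 in stimulated KO cells and 10.29, 10.45 and 9.99 in vehicle KO cells (-3.24 ± 0.25), and factor D, CFD, fell (-1.17).

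Among 22 adhesion molecules 7 were called higher and 3 lower, with VCAM1 read at 12.27, 11.71 and 11.42 in stimulated KO cells and 0.12, 0.99 and -0.05 in vehicle KO cells, ICAM1 up by 7.05 ± 0.50 (133-fold) and CD44 by 3.42. Matrix proteases rose in MMP13 (5.70), MMP12 (5.29), MMP25 (4.26) and MMP19 (3.12) and fell in MMP2 (-2.66) and ADAMTS1 (-4.96), and the inhibitor TIMP3 read 5.82, 5.70 and 6.68 in stimulated KO cells and 10.51, 9.82 and 10.76 in vehicle KO cells (-4.30 ± 0.49). Of these 20 genes 7 were called higher and 5 lower. Thrombomodulin THBD, an anticoagulant, fell (-3.41 ± 0.46), and TFPI2 (5.19) and SERPINE2 (3.17), which inhibit proteases, rose. Their list had 4 of 15 called higher and 4 lower, the lower count being 2 without vehicle replicate 3. Its median change was 0.63, and over all genes 17.3% were called higher and 21.6% lower. Of 29 lysosomal genes 12 were called higher and 4 lower, 2 without stimulated or vehicle replicate 2. CTSH (2.68), CTSS (2.11), CTSZ (1.82) and the lysosome regulator TFEB (1.77) rose and the proton pump subunit ATP6V0D2 fell (-2.62).

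Genes of the monocyte and macrophage lineage moved both ways. LYZ, lysozyme, read 7.92, 6.38 and 7.14 in stimulated KO cells and 12.09, 11.22 and 10.80 in vehicle KO cells (-4.22 ± 0.53, adjusted p = 2.39e-07), which is 18.7-fold lower. The master factor SPI1 (PU.1) read 11.84, 11.45 and 11.73 in stimulated KO cells and 10.09, 10.06 and 9.90 in vehicle KO cells (1.65 ± 0.23). CSF1R, the growth factor receptor of macrophages, changed by -0.82 ± 0.50 and was not called. Of 25 myeloid transcription factors 9 were called higher, led by BHLHE40 (4.56), EGR2 (4.27) and CEBPB (3.36), and 7 lower, among them CEBPA (-1.66), MAF (-2.21) and MYB (-3.28). Markers of myeloid precursors were called lower in 13 of 20 and higher in 1, with a median of -1.90. The granule protease CTSG read 7.00, 6.88 and 8.13 in stimulated KO cells and 11.33, 10.48 and 11.80 in vehicle KO cells (-3.87 ± 0.71), and ELANE (-2.52), PRTN3 (-2.23) and the growth factor receptors KIT (-4.56 ± 0.76) and FLT3 (-2.73) fell. CD38 was the member called higher (3.36), and it is also an interferon-stimulated gene. Markers of other cell types were called higher in 1 of 9 (T, B and NK cells), 2 of 11 (epithelium, fibroblasts and endothelium), 1 of 8 (red cells, platelets and neutrophils) and 5 of 12 (dendritic and mast cells), and lower in 1, 2, 1 and 2 of the same lists. Among all genes 17.3% were called higher and 21.6% lower. The dendritic and mast cell list held LAMP3 (10.11), CCL22 (3.02) and IL3RA (2.41), while the Langerhans and dendritic cell lipid presenters CD1A (-2.39) and CD1C (-2.58) fell. In this list 3 of the 12 were called higher without stimulated replicate 3. The single higher lymphocyte call was lost without stimulated replicate 1 or 2 or vehicle replicate 1 or 3, and 1 of the epithelial, fibroblast and endothelial higher calls without stimulated replicate 2 or vehicle replicate 1 or 2. The lower lymphocyte call was lost without each library but stimulated replicate 1, 1 lower call of the epithelial, fibroblast and endothelial list without stimulated replicate 1 or 3 or vehicle replicate 3, and the lower call of the red cell, platelet and neutrophil list without stimulated replicate 2 or 3 or vehicle replicate 1. Their part in the other results was not tested.

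Cell cycle genes fell nearly as a whole. Of 30 genes of replication and S phase 29 were called lower and 0 higher, with a median of -2.53, and 27 were called in every fit that left out 1 KO library. The factor E2F1, whose promoter is printed above, read 3.82, 2.46 and 3.37 in stimulated KO cells and 6.72, 7.49 and 6.06 in vehicle KO cells (-3.54 ± 0.49, adjusted p = 1.57e-06). Ribonucleotide reductase RRM2 read 4.99, 4.72 and 4.52 in stimulated KO cells and 8.14, 9.86 and 7.07 in vehicle KO cells (-3.62 ± 0.58), and thymidine kinase TK1 (-3.37), the helicase loader CDC6 (-3.34) and UNG (-2.53) fell. All 22 genes of mitosis and G2 were called lower, with a median of -2.76, and 14 of them without stimulated replicate 2. TOP2A read 7.47, 5.28 and 6.73 in stimulated KO cells and 10.19, 9.93 and 9.43 in vehicle KO cells (-3.36 ± 0.81), and BUB1B (-3.24), CCNA2 (-3.12) and CDK1 (-3.06) fell. The inhibitors CDKN1A (2.36) and CDKN1B (1.02), the antiproliferative BTG1 (2.87) and GADD45B (3.63) rose, while SESN1 (-3.23) and the inhibitor CDKN2C (-2.09) fell, in a list of 20 with 9 called higher and 5 lower. The call of CDKN2C was lost without stimulated replicate 2 (-1.53). The lower count was 2 without stimulated replicate 3 or vehicle replicate 1 and 3 without each of the other 4 libraries.

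Replication-dependent histone genes, which normally follow S phase, moved in the other direction, with 12 of 20 called higher and 0 lower and a median of 1.29. H2BC4 read 7.44, 8.50 and 8.27 in stimulated KO cells and 3.93, 4.00 and 5.35 in vehicle KO cells (3.64 ± 0.46, 12.5-fold), and H3C4 (4.34), H2BC11 (3.94) and H2AC6 (2.84) rose. Their usual transcripts lack a poly(A) tail, and per the labels the libraries were made from total RNA after removal of ribosomal RNA, so such transcripts can be read. Members of histone clusters are near-identical in sequence, and values of single genes are uncertain.

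The ubiquitin system was read by enzyme class. Of 56 ubiquitin ligases 31 were called higher and 4 lower, with a median of 1.22. All 31 were called in every fit that left out 1 KO library, and 2 were called lower without stimulated replicate 3. NEURL3 (8.68 ± 0.40), the apoptosis inhibitor BIRC3 (8.65 ± 0.35), TRAF1 (6.38), TRIM69 (6.36) and RNF19B (5.46) led. RBCK1 (1.98) and RNF31 (0.93), subunits of the linear ubiquitin ligase that feeds NF-kB, rose, and the remaining subunit SHARPIN changed by -0.75 and was not called. SKP2, which drives cells into S phase, read 4.76, 3.57 and 4.30 in stimulated KO cells and 6.78, 7.59 and 6.84 in vehicle KO cells (-2.86 ± 0.40). Ubiquitin, E1 and E2 genes were called higher in 12 of 37 and lower in 8, 4 without stimulated replicate 2. Their lower count was near the share over all genes, of which 17.3% were called higher and 21.6% lower. UBE2L6, the ISG15-conjugating E2, read 11.35, 11.29 and 11.49 in stimulated KO cells and 7.75, 8.18 and 7.93 in vehicle KO cells (3.42 ± 0.27, 10.7-fold). The ubiquitin fusion gene RPS27A fell (-0.66). Of 51 deubiquitinases 11 were called higher and 5 lower, the lower count being 2 without stimulated replicate 2 and 3 without stimulated replicate 3 or vehicle replicate 2 or 3. The median change of the deubiquitinases was 0.1, and their higher count was near the share over all genes, of which 17.3% were called higher and 21.6% lower. TNFAIP3, STAMBPL1 (4.95), the ISG15 protease USP18 (4.25) and CYLD rose, and USP2 fell (-3.03).

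The KO and WT responses at 24 h were then compared directly, as the difference of the 2 changes, which share no library. In WT cells 20.2% of genes were called higher and 26.1% lower, 46.4% in all. 2832 genes were called higher in both lines and 3448 lower in both, and the KO minus WT difference was called in 92 genes, 0.433% of those tested, with 37 higher (0.174%) and 55 lower (0.259%) in KO. The balance of the 2 directions turned with the processing, with 1305 higher and 1068 lower under library weights and 108 higher and 94 lower without KO stimulated replicate 2. None of the antiviral, MHC, integrated stress response, TCA cycle, oxidative phosphorylation, sterol or cell cycle lists held a called difference with all libraries in. Their median KO minus WT differences were 2.04 (MHC class II), 0.3 (class I), 0.99 (antiviral), 0.94 (sterol) and 0.78 (replication). The remaining medians were 0.44 (integrated stress response), 0.44 (TCA cycle), 0.21 (oxidative phosphorylation) and 0.02 (mitosis). Over all genes the median was 0.08, and no list was tested as a set. Without KO stimulated replicate 2, 3 MHC class II genes, 1 MHC class I gene and 1 sterol gene were called higher in KO. Without WT stimulated replicate 2 it was 1 MHC class II gene, and without KO vehicle replicate 2 it was 1 antiviral gene. The count of 92 ran from 18 to 202 as each of the 12 libraries was left out, being 18 without KO vehicle replicate 1 and 202 without KO stimulated replicate 2. A miss of the threshold here does not show that the lines answered alike.

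NFKB2, of the alternative NF-kB pathway, had a larger change in KO cells, where its vehicle level was lower. It read 9.10, 9.69 and 9.16 in stimulated and 3.87, 4.66 and 3.84 in vehicle KO cells, against 8.94, 9.16 and 8.79 in stimulated and 5.74, 5.62 and 5.94 in vehicle WT cells, a difference of responses of 1.99 ± 0.36 (adjusted p = 0.0091). TNFRSF9 (4-1BB), a costimulatory receptor, read 9.89, 9.63 and 9.88 in stimulated and 1.22, 3.39 and 0.10 in vehicle KO cells, against 8.99, 8.86 and 8.84 in stimulated and 5.52, 5.53 and 4.66 in vehicle WT cells (4.57 ± 0.79, adjusted p = 0.00659). Vehicle replicate 2 was the highest vehicle KO value for TNFRSF9. For NFKB2 and TNFRSF9 the lines lay further apart with vehicle than with stimulation. C4B read 8.58, 8.54 and 8.25 in stimulated and 2.42, 2.58 and 2.67 in vehicle KO cells, against 6.61, 6.40 and 6.84 in stimulated and 2.89, 2.92 and 3.12 in vehicle WT cells (2.26 ± 0.35, adjusted p = 0.00238), and C4A, a near-identical copy whose reads may be split between them, differed by 2.22 ± 0.36. TMCC3 differed by 3.73 ± 0.67 (adjusted p = 0.0091). NFKB2, TNFRSF9, C4A, C4B and TMCC3 were called in all 12 fits that left out 1 of the 24 h libraries, and none of the 5 when only the 12 compared libraries were fitted.

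In the lower direction RGS4 differed by -5.04 ± 0.64 (adjusted p = 0.00014) and the potassium channel subunit KCNMB4 by -3.95 ± 0.67 (adjusted p = 0.00525), both called in all 12 such fits, and RGS4 also with only the 12 compared libraries. RGS4 changed by -7.08 in KO cells and by -2.04 in WT cells. Its vehicle level at 24 h averaged 8.04 in KO and 2.43 in WT cells. WT cells thus had little room to fall, and the size of the difference depends on these vehicle levels. The secreted collagen-repeat protein CTHRC1 (-5.21 ± 0.97) and the kinase inhibitor CAMK2N1 (-4.79 ± 0.89) were called in all but 1 fit, which left out KO vehicle replicate 1 in both cases (-4.57 and -4.30). CCL7, a monocyte attractant, read 2.87, 3.78 and 3.14 in stimulated and -0.34, -0.24 and 0.02 in vehicle KO cells, against 10.20, 9.60 and 10.02 in stimulated and 1.91, 2.72 and 1.33 in vehicle WT cells (-4.50 ± 0.89, adjusted p = 0.017). The stimulated WT values lay above all stimulated KO values, and the call was kept in 6 of 12 fits, with a range of -4.87 to -4.18. It was lost without KO stimulated replicate 1 or 3, KO vehicle replicate 1 or 3 or WT vehicle replicate 1 or 3. Of the 30 list and named genes called in this difference, 7 were called in all 12 fits and 23 were lost in at least 1. Counts of the 30 that stayed called were 7, 29 and 10 without KO vehicle replicates 1, 2 and 3, 10, 29 and 11 without KO stimulated replicates 1, 2 and 3, 10, 23 and 14 without WT vehicle replicates 1, 2 and 3, and 21, 24 and 13 without WT stimulated replicates 1, 2 and 3.

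Opposite calls in the lines were rare. 6 genes were called higher in KO and lower in WT cells, 3 of them with a called difference, and 21 were called lower in KO and higher in WT cells, 12 with a called difference. In the first set were HYOU1, an endoplasmic reticulum chaperone (0.73 in KO, -0.99 in WT cells), the aldehyde reductase AKR1A1 (0.68 in KO, and called lower in WT cells) and the peroxidase PRDX1 (0.63 and -0.85). The KO call of HYOU1 was lost without stimulated replicate 1 (0.63), stimulated replicate 3 (0.51), vehicle replicate 2 (0.66) or vehicle replicate 3 (0.71), that of AKR1A1 without stimulated replicate 1 (0.70), stimulated replicate 2 (0.69), stimulated replicate 3 (0.66) or vehicle replicate 1 (0.50) and that of PRDX1 without stimulated replicate 1 (0.62), stimulated replicate 2 (0.56), vehicle replicate 1 (0.50) or vehicle replicate 3 (0.65). In the second set were SP6 (-4.00 in KO, 2.57 in WT cells), PLN (-2.47 and 2.65), CAMK2N1 (-2.58 and 2.21) and KCNMB4 (-1.61 and 2.34). The KO call of PLN was lost without vehicle replicate 1 (-1.68) and that of KCNMB4 without vehicle replicate 1 (-1.30).

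**Figure D4:**
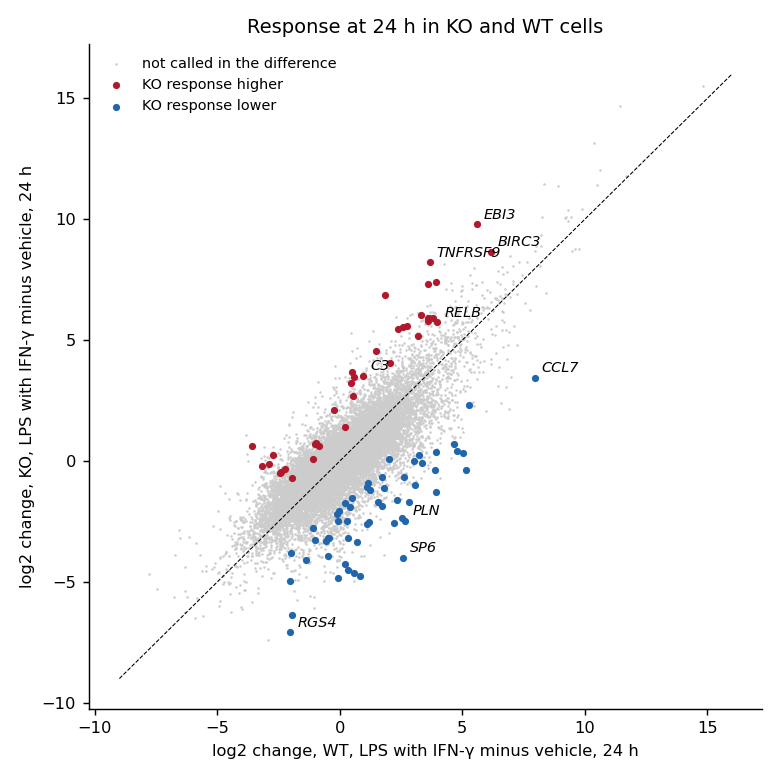
Log2 change at 24 h with LPS and IFN-γ against vehicle in KO cells (y axis) and WT cells (x axis) for 21232 genes, with equal change on the dashed line. Red and blue points are the 37 and 55 genes whose KO minus WT difference was called; EBI3, BIRC3, TNFRSF9 and RELB lie above the line and CCL7, PLN, SP6 and RGS4 below it.

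Some genes of the KO response already differed between the lines with vehicle. To follow these, and without using the 24 h libraries, genes were taken whose 6 vehicle KO values at 6 and 12 h all lay at least 2 log2 units above the 6 vehicle WT values. There were 37, and their median level at 24 h was 1.63, 1.72 and 2.84 in stimulated KO cells and 6.12, 5.01 and 5.90 in vehicle KO cells, with 0.85, 1.59 and 0.96 in stimulated and 1.08, 1.84 and 1.22 in vehicle WT cells. Vehicle replicate 2 had the lowest of the vehicle KO medians and so lay nearest to the WT cells, while stimulated replicate 2 did not stand apart in this way. Without both KO libraries numbered 2 the KO response had 5618 calls (8269 with all), the KO minus WT difference 249 (92 with all) and the 24 h minus 6 h difference 578 (1434 with all). The medians of stimulated KO cells lay nearer to those of WT cells than to those of vehicle KO cells, with 30 of 37 called lower and 0 higher in the KO response and a median change of -2.81. The 37 were chosen for vehicle KO values above those of WT cells, which favours falls over rises. As the WT medians were low, any fall in KO cells also led towards them. RGS4 and the neuronal membrane protein ELFN2 (-5.65) were among the 37. In the other direction 31 genes were at least 2 units lower in KO cells. Their median level was 2.08, 1.71 and 1.67 in stimulated KO cells and 1.25, 1.25 and 0.93 in vehicle KO cells, against 5.29, 4.98 and 4.11 in stimulated and 5.22, 5.13 and 4.84 in vehicle WT cells. All 6 KO medians thus lay under all 6 WT medians. Of these genes 9 were called higher and 0 lower in the KO response, with a median change of 0.45. Their low levels in vehicle KO cells left little room to fall, so the count of 0 lower was largely set by the choice of genes. Over all genes 17.3% were called higher and 21.6% lower. The 9 included the neutrophil attractants CXCL8 (8.89), CXCL1 (7.34) and CXCL6 (4.71), named here after their values were seen.

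**Figure D5:**
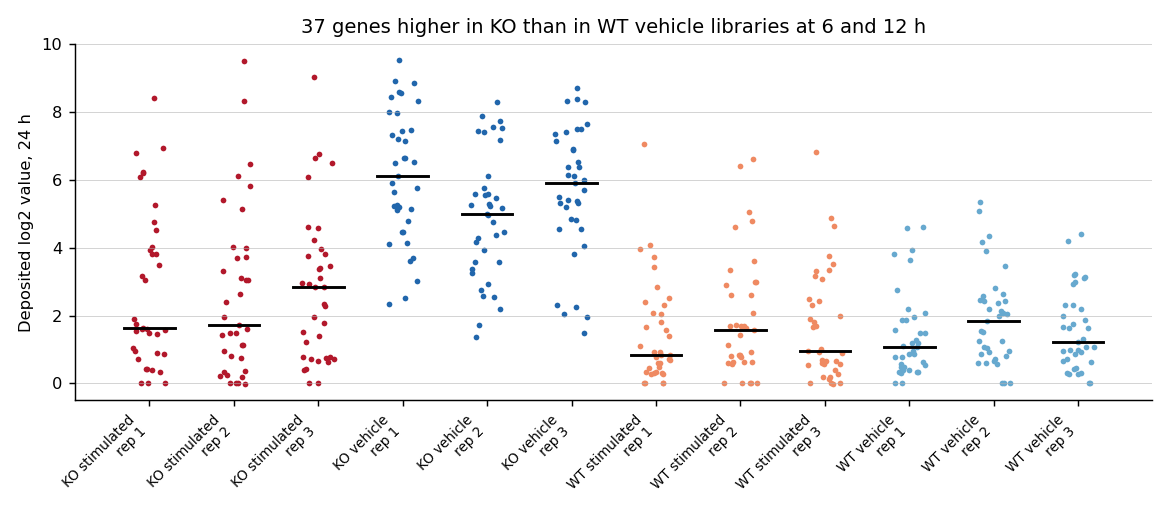
Deposited log2 values at 24 h (y axis) of the 37 genes that were at least 2 units higher in every vehicle KO than in every vehicle WT library at 6 and 12 h. Points are genes, bars are medians, and each column is 1 library; the vehicle KO libraries have medians of 6.12, 5.01 and 5.90 and the stimulated KO libraries 1.63, 1.72 and 2.84.

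The last comparison set the KO response at 24 h against that at 6 h. The difference was called in 1434 genes, 6.75% of those tested, with 711 higher at 24 h (3.35%) and 723 lower (3.41%), and 3190 higher and 2660 lower under library weights. The count ran from 889 to 1732 as each of the 12 libraries was left out, with 889 without KO vehicle 6 h replicate 3 and 939 without KO vehicle 24 h replicate 2. Genes of the integrated stress response stood out in number: 16 of 29 were called higher at 24 h than at 6 h and 0 lower, and 10 without KO stimulated 24 h replicate 2. PSAT1 of serine synthesis changed by 3.55 at 24 h and -2.99 at 6 h, a difference of 6.54 ± 0.93 (adjusted p = 8.05e-05). STC2, a secreted stress glycoprotein, changed by 5.58 at 24 h and -1.06 at 6 h (6.64 ± 0.91), ASNS by 3.61 and -0.29 (3.90 ± 0.71) and DDIT3 by 3.38 and -0.26 (3.63 ± 0.66). All 4 rose at 24 h, while ASNS and DDIT3 changed little at 6 h. Of 19 tRNA synthetases 7 were called higher at 24 h, 4 without KO stimulated 24 h replicate 2, with AARS1 at 1.63 at 24 h and -2.30 at 6 h (3.93 ± 0.54). Sterol genes were called higher in 6 of 27, among them MSMO1 (3.16 ± 0.72) and DHCR7 (2.83 ± 0.67), and in 3 to 11 as single libraries were left out, 3 without KO stimulated 24 h replicate 1 or 3 or KO vehicle 24 h replicate 3 and 11 without KO stimulated 24 h replicate 2.

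Other genes had their larger change at 6 h. The growth factor CSF2 changed by 1.15 at 24 h and 6.29 at 6 h (-5.14 ± 0.91, adjusted p = 0.000995). The chemokine XCL1 changed by -0.91 at 24 h and 5.44 at 6 h (-6.34 ± 1.42), the activin-binding FSTL3 by 1.03 and 8.07 (-7.04 ± 0.63) and the oxidase DUOX2 by -1.65 and 5.61 (-7.26 ± 1.69). At 24 h none of these 4 was called against vehicle. In the plot of the lists over time, chemokines had a median difference of -1.29 between the times, with 0 called higher and 2 lower, the lower count running from 1 to 4 as single libraries were left out. Precursor markers moved down more often: 11 of 20 precursor markers were called lower at 24 h than at 6 h, 8 to 10 as single libraries were left out, with CTSG at -3.87 at 24 h and 0.60 at 6 h (-4.47 ± 1.01) and MPO at -3.20 and 0.92 (-4.12 ± 0.80). LYZ changed by -4.22 at 24 h and -0.41 at 6 h (-3.81 ± 0.74, adjusted p = 0.00227), and TREM2 by -5.22 and -1.82 (-3.40 ± 0.74).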

How the data were processed

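RNA-seq of total RNA after removal of ribosomal RNA was deposited by the authors as 1 table of log2 values for 21599 genes in 36 libraries, 3 in each of 12 groups. The submitters' processing notes name cutadapt 1.9.1, GSNAP and GRCh37.p5, and the counting, annotation, normalization and offset are not given in the sources used here. Library medians lay between 5.469 and 5.475. The table holds no counts, so the depth is unknown and no counting interval is given. A symbol was lacking for 990 genes.

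Groups were taken from the sample titles. Genes at or above 3.32 (log2 of 10) in at least 3 libraries were kept, 21232, and 367 were removed, which drops genes near the floor. limma 3.58.1 in R 4.3.3 fitted 12 group means with a mean-variance trend (24 residual and 4.45 prior degrees of freedom). Contrasts were stimulated minus vehicle in KO cells at 24 h, and this response minus that of WT cells and minus that at 6 h, with Benjamini-Hochberg adjustment and a threshold of 0.05. The fit was tested on simulated data. Tables and figures used Python 3.11.15, pandas 2.3.3, numpy 2.4.6 and matplotlib 3.10.9. Promoter letters and windows came from RefSeq.

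Named genes were ACOD1, the 12 largest called rises and falls with groups that did not overlap, up to 4 members per list with the largest changes, members needed for their role, and the largest called differences. Some further members were named after their values were seen. Some genes of these sets are not reported here. The members and lists were chosen with earlier results of these data known. Alternatives covered the filter, an offset, scaling, library weights, the libraries fitted, a replicate block, a minimum change and leaving out each replicate. Leaving out the 2 libraries that stand apart, or both KO libraries numbered 2 at 24 h, was added after seeing the data.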

Additional observations from a re-analysis of the deposited data

Results flagged for a closer look

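The results given here are those in which a test of the difference itself called the KO response at 24 h different from another response. None of them was weighed for a cause. The KO minus WT difference was called in 92 genes. Among these, the response was larger in KO cells for TNFRSF9 (4.57 ± 0.79), EBI3 (4.20 ± 0.87), TMCC3 (3.73 ± 0.67), smooth muscle myosin MYH11 (3.47 ± 0.66), the long non-coding RNA EGOT (3.10 ± 0.67) and the protease ADAMDEC1 (2.89 ± 0.68). FXYD6 (3.06 ± 0.71) and FXYD6-FXYD2 (3.19 ± 0.73) overlap on the genome, so their reads may be shared. EBI3 read 12.61, 12.72 and 12.49 in stimulated and 2.90, 3.44 and 2.12 in vehicle KO cells, against 11.32, 12.06 and 10.98 in stimulated and 5.74, 5.62 and 6.24 in vehicle WT cells. All 3 stimulated KO values lay above those of stimulated WT cells, and all 3 vehicle KO values below those of vehicle WT cells. The call of EBI3 was lost without KO stimulated replicate 1 (4.20), KO stimulated replicate 3 (4.26), KO vehicle replicate 1 (4.24), KO vehicle replicate 3 (3.85), WT stimulated replicate 3 (3.97), WT vehicle replicate 1 (4.27) or WT vehicle replicate 3 (4.02).

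Smaller positive differences were in RELB (1.77 ± 0.39) and NFKB2 (1.99 ± 0.36) of the alternative NF-kB pathway, in complement C3 (2.57 ± 0.57), C4A (2.22 ± 0.36) and C4B (2.26 ± 0.35), in the ubiquitin ligase BIRC3 (2.49 ± 0.50), in the lysosomal protease CTSH (2.16 ± 0.50), and in HYOU1 (1.72 ± 0.38), AKR1A1 (1.68 ± 0.37) and PRDX1 (1.48 ± 0.32). BIRC3 read 10.13, 9.57 and 10.56 in stimulated and 1.42, 1.50 and 1.38 in vehicle KO cells, against 8.64, 8.48 and 9.17 in stimulated and 2.80, 2.31 and 2.70 in vehicle WT cells, so the KO values lay higher with stimulation and lower with vehicle, without overlap. The call of BIRC3 was lost without KO stimulated replicate 1 (2.47), KO stimulated replicate 3 (2.26), KO vehicle replicate 1 (2.49), KO vehicle replicate 3 (2.47) or WT vehicle replicate 1 (2.40), that of RELB without KO stimulated replicate 1 (1.76), KO stimulated replicate 3 (1.78), KO vehicle replicate 1 (1.71), KO vehicle replicate 3 (1.58), WT stimulated replicate 1 (1.71), WT stimulated replicate 3 (1.75), WT vehicle replicate 1 (1.77) or WT vehicle replicate 3 (1.71) and that of C3 without KO stimulated replicate 1 (2.41), KO stimulated replicate 3 (2.70), KO vehicle replicate 1 (2.60), KO vehicle replicate 3 (2.30), WT stimulated replicate 1 (2.51), WT stimulated replicate 3 (2.33), WT vehicle replicate 1 (2.56) or WT vehicle replicate 2 (2.30).

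Negative differences were in the placental and skin factor SP6 (-6.57 ± 1.34), the checkpoint receptor TIGIT (-5.59 ± 1.31), CTHRC1 (-5.21 ± 0.97), the envelope-derived ERVFRD-1 (-5.20 ± 1.21), the calcium pump inhibitor PLN (-5.13 ± 1.14), RGS4 (-5.04 ± 0.64), CAMK2N1 (-4.79 ± 0.89), SAMD11 (-4.76 ± 1.07), CCL7 (-4.50 ± 0.89), the carbonic anhydrase CA12 (-4.06 ± 0.88), SBK3 (-4.50 ± 0.95) and KCNMB4 (-3.95 ± 0.67). SP6 read 1.75, 1.61 and 3.45 in stimulated and 8.33, 3.59 and 6.90 in vehicle KO cells, against 2.51, 2.08 and 4.89 in stimulated and 0.01, 0.02 and 1.76 in vehicle WT cells. With vehicle all 3 KO values were above all WT values, and with stimulation the lines overlapped. The call of SP6 was lost without KO stimulated replicate 1 (-6.30), KO vehicle replicate 1 (-5.54), KO vehicle replicate 3 (-6.25), WT stimulated replicate 3 (-5.70), WT vehicle replicate 1 (-6.27) or WT vehicle replicate 2 (-6.28). Of all the genes in these lists, 7 (NFKB2, TNFRSF9, C4A, C4B, TMCC3, RGS4 and KCNMB4) were called in each of the 12 fits that left out 1 library, and the other 23 were not. With only the 12 compared libraries fitted, 3 of the 30 stayed called, of these 7 only RGS4. RGS4 was called under every alternative in which it was tested, and the stricter filter tested only 12 of the 30 genes. Its low vehicle level in WT cells (2.43, against 8.04 in KO cells) left little room for a fall there.

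The KO response differed between 24 h and 6 h in 1434 genes. It was higher at 24 h for STC2 (6.64 ± 0.91), PSAT1 (6.54 ± 0.93), PADI2 (5.79 ± 1.21), which turns arginine of proteins into citrulline, the haem protein CYGB (5.59 ± 1.22), the homeobox factor LHX1 (5.31 ± 1.38) and NDRG4 (5.27 ± 1.07). List members higher at 24 h were ATF3 (2.93 ± 0.45), ASNS (3.90 ± 0.71), DDIT3 (3.63 ± 0.66), PHGDH (3.71 ± 0.95), AARS1 (3.93 ± 0.54), MSMO1 (3.16 ± 0.72) and DHCR7 (2.83 ± 0.67). LHX1 was not called without KO stimulated 24 h replicate 2 (4.84), KO vehicle 24 h replicate 2 (4.60) or KO vehicle 6 h replicate 1 (4.44), and PHGDH was not called without KO stimulated 24 h replicate 2 (3.17).

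The response was lower at 24 h for DUOX2 (-7.26 ± 1.69), FSTL3 (-7.04 ± 0.63), XCL1 (-6.34 ± 1.42), RTL4 (-6.18 ± 1.32) and CXorf49B (-5.84 ± 0.75). Cytokine genes with a lower response were CSF2 (-5.14 ± 0.91) and CCL2 (-3.14 ± 0.91), and the call of CCL2 was lost without KO stimulated 24 h replicate 1 (-2.95), KO stimulated 24 h replicate 2 (-2.98), KO vehicle 24 h replicate 2 (-2.94), KO vehicle 24 h replicate 3 (-2.89), KO stimulated 6 h replicate 3 (-2.68) or KO vehicle 6 h replicate 1 (-2.71). Genes of precursors and of the lineage with a lower response were CTSG (-4.47 ± 1.01), ELANE (-2.87 ± 0.66), MPO (-4.12 ± 0.80), LYZ (-3.81 ± 0.74), TREM2 (-3.40 ± 0.74), MS4A3 (-4.92 ± 1.19) and F13A1 (-4.06 ± 0.70).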

How the results depend on the processing

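No called change of a named or list gene reversed its sign under the alternatives run, but the balance of higher and lower calls turned in both differences. The 8269 calls of the KO response at 24 h stayed within 1.5 times under all but the stricter filter, which tests fewer genes (4650), and ran from 6661 to 7599 as single libraries were left out, lowest without KO stimulated replicate 2. Without both KO libraries numbered 2 there were 5618. Of 776 named and list genes called there, 617 were called whichever library was left out.

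The KO minus WT count of 92 was 9 with the stricter filter, 157 with an offset of 5, 2373 with library weights, 4 with only the 12 compared libraries, 249 without both KO libraries numbered 2 and 18 to 202 without single libraries. Higher and lower calls, 37 and 55, were 1305 and 1068 with library weights, 5 and 4 with the stricter filter, 212 and 215 with the replicate block, and 108 and 94 without KO stimulated replicate 2, and the balance also turned without replicate 2 of WT stimulated (88 and 86) or WT vehicle cells (34 and 32). The total was 77 after quantile normalization and 113 without the variance trend. The 24 h minus 6 h count of 1434 was 897 with the stricter filter, 5850 with library weights, 609 with only the compared libraries, 578 without both KO libraries numbered 2 and 889 to 1732 without single libraries. Its 711 higher and 723 lower calls were 3190 and 2660 with library weights, 499 and 398 with the stricter filter, 1306 and 1179 with the block, 1163 and 953 without the 2 libraries that stand apart and 945 and 787 without KO stimulated 6 h replicate 2. Apart from the smaller numbers of genes or libraries, the cause was not tested.

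A replicate block gave 9434, 427 and 2485 calls. Same-numbered KO libraries at 24 h correlated at 0.167, 0.039 and 0.227, 1 of them under 0.1. Each stimulated library correlated best with its same-numbered vehicle library, but vehicle replicate 2 correlated best with stimulated replicate 1 (0.09). The numbers were not taken as pairs for this comparison, so an effect shared by libraries of 1 number would stay in the spread. Between other groups same-numbered libraries correlated at 0.215 to 0.346 between stimulated KO and WT cells, 0.223 to 0.428 between vehicle KO and WT cells, 0.243 to 0.511 between stimulated and vehicle WT cells, 0.269 to 0.589 between stimulated and vehicle KO cells at 6 h, 0.263 to 0.416 between vehicle KO cells at 24 and 6 h and 0.019 to 0.34 between stimulated KO cells at 24 and 6 h. Different-numbered libraries at 24 h reached at most 0.086 between stimulated KO and WT cells and 0.032 between vehicle KO and WT cells. The labels name no shared culture or batch, and whether the numbers mark one was not settled. The block kept all 30 and all 155 named and list genes called in the differences. Without both KO libraries numbered 2, 81 of the 155 genes stayed called between 24 h and 6 h, ELANE and TREM2 not among them, and with only the compared libraries 84. Depth, and so the counting error at low values, is unknown.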
